A study of Solanum tuberosum and Solanum acaule with 12 samples.

Results

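In shoots of the potato cultivar Atlantic, 471 loci kept nearly the same transcript level whether or not the plants had been frozen. They were chosen by their measured values in all 6 Atlantic libraries. A locus had to reach a signal of 20 in each library, and its highest value could be at most 25% above its lowest. These 471 loci are 7.59% of the 6204 loci that reached 20 in all 6 libraries and 0.967% of the 48685 loci with a placed transcript. A locus here is the sum of all assembled transcripts that carry the same assembly number and are listed in the authors' placement table.

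Solanum tuberosum cv. Atlantic is an autotetraploid cultivar, so each chromosome is present in 4 similar copies. The freezing group held 3 biological replicates of shoot explants from a chamber cooled gradually to -4 °C from 22 °C, at 2 °C each hour, per the labels. The control group held 3 replicates grown under long days. The labels give neither the time spent at -4 °C nor the age of the plants. Both groups are 1 cultivar sampled as whole shoot, so fewer cells of a type and less RNA per cell cannot be told apart. No locus was paired with a gene name in the files or the reference table, so the shoot label could not be checked against marker genes, and no function is given for any locus.

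Cold and freezing are known to reshape plant transcription widely: signalling and protective genes are induced while photosynthesis and growth genes are often repressed. Against such a background, transcripts with a near constant level are of practical use, since they serve as internal references when other transcripts are quantified. The level of a locus in a polyploid is a sum over alleles and splice forms, and a constant sum can be made of constant parts or of parts that offset each other.

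Values are the deposited signal, which has the form of TPM (transcript abundance scaled for length and library size) divided by a library factor. Library totals ran from 961746 to 1102442. Sequencing depth is unknown, so precision rests on the 3 replicates of each group. Because the rule used all 6 libraries, the freezing contrast of the steady loci is a description and carries no test.

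The levels of the steady loci varied little by construction. Their ratio of highest to lowest value had a median of 1.202 and a lowest value of 1.05, against a median of 1.69 in the other 5733 loci at the same level. The coefficient of variation over the 6 libraries had a median of 6.99% in the steady loci and 20.1% in the others. In only 15 loci was the highest value at most 10% above the lowest. It was 10% to 15% above in 65 loci, 15% to 20% above in 151 and 20% to 25% above in 240. The next step, from 25% to 30%, held 313 loci. The steady loci are therefore the lower tail of a continuous spread, with no gap at the limit. Without freezing replicate 2, 1031 loci met the rule, and without freezing replicate 1, 777 did.

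**Figure D1:**
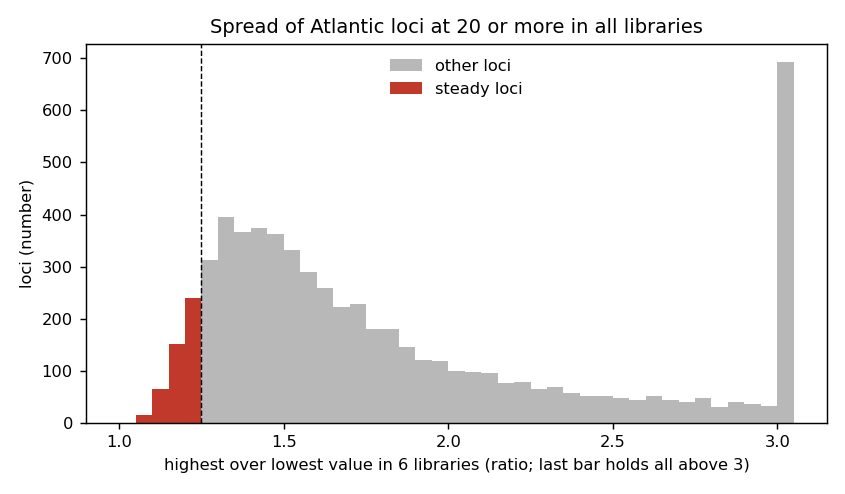
Number of loci (vertical axis) by the ratio of the highest to the lowest of their 6 library values (horizontal axis), for the 6204 Atlantic loci at 20 or more in every library. The 471 steady loci fill the red bars left of the dashed limit, where the highest value is 25% above the lowest, and the number of loci keeps rising across it.

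The loci nearest to the limit looked alike on both sides of it. Just inside, AtlantEVm023820 had a ratio of 1.2496, with 39.2, 47.6 and 48.0 after freezing against 38.6, 42.4 and 38.4 in control. AtlantEVm011251 and AtlantEVm007896 followed it, at ratios of 1.2496 and 1.2495. Just outside, AtlantEVm017201 had a ratio of 1.2503, with 48.3, 47.8 and 59.8 after freezing against 50.4, 56.7 and 55.8 in control. AtlantEVm009875 and AtlantEVm025797 came next, at 1.2503 and 1.2506. In AtlantEVm025797 the freezing values of 25.4, 25.3 and 24.96 all lay above the control values of 20.5, 23.0 and 20.3, and shifts of this size were found inside the limit as well, where log2 differences between group means ran from -0.21 to 0.25.

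The steadiest of all was AtlantEVm011935, whose main transcript was placed on chromosome 4, copy 0, at 25710648 to 25716578. Its signal was 26.6, 26.9 and 26.4 after freezing and 27.8, 27.6 and 26.9 in control, a spread of 2.02% (coefficient of variation, 6 libraries). The freezing values lay at the low end, and the groups overlapped slightly. Copies are numbered 0 to 4 in the placement table, which does not say what 0 stands for and names no genome build. The place given for a locus is that of its main transcript, and its other transcripts can lie elsewhere. AtlantEVm002446, whose main transcript lay on an unanchored sequence, had 47.9, 45.9 and 48.5 after freezing and 46.2, 47.7 and 47.8 in control. Its groups were fully mixed.

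AtlantEVm016808, on chromosome 3, copy 1, at 36966599 to 36972107, had 26.0, 25.1 and 25.2 after freezing and 24.4, 24.8 and 26.0 in control. AtlantEVm016109, on chromosome 8, copy 1, at 9319275 to 9337547, had 44.6, 46.9 and 43.7 after freezing and 44.0, 43.8 and 44.9 in control. In both loci the groups overlapped and the highest and lowest libraries differed by at most 1.07-fold. AtlantEVm014553, on chromosome 5, copy 1, at 48356683 to 48364314, averaged 42.4 ± 0.426 after freezing and 43.6 ± 1.87 in control (SD, n = 3 each).

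AtlantEVm018938 parted the groups while it remained steady. Its main transcript lies on chromosome 1, copy 1, at 54472292 to 54476571, and its signal was 41.5, 42.5 and 41.7 after freezing against 40.1, 39.7 and 39.4 in control. Every freezing value was above every control value, by a difference of means of 0.08 on the log2 scale. AtlantEVm051443 and AtlantEVm012163, both on chromosome 2, completed the 8 loci of lowest ratio. AtlantEVm051443 had 24.5, 24.9 and 26.0 after freezing and 25.8, 26.7 and 24.7 in control. AtlantEVm012163 averaged 50.8 ± 1.28 after freezing and 50.9 ± 2.16 in control (SD, n = 3 each), the closest pair of group means among these 8 loci.

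The steady loci also reached high levels. AtlantEVm009290, the most abundant of them, had 1704, 1561 and 1552 after freezing and 1656, 1472 and 1434 in control. Its 14 listed transcripts named 14 gene models on chromosome 6 and on unanchored sequence, so its value is a sum over several gene models. AtlantEVm011466, with its main transcript on chromosome 1, copy 4, had 1539, 1601 and 1404 after freezing and 1649, 1400.1 and 1391 in control. AtlantEVm016622, on chromosome 6, copy 2, had 1317, 1491 and 1289 after freezing and 1533, 1334 and 1327 in control, summed over 58 transcripts. In each of these 3 loci the highest control library was replicate 1, and the groups overlapped.

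A second set of abundant loci followed, with group means between 617 and 787. AtlantEVm029211, on chromosome 3, copy 2, at 33643003 to 33644573, averaged 787 ± 46.0 after freezing and 717 ± 31.5 in control (SD, n = 3 each). AtlantEVm020271, on chromosome 10, copy 0, at 1207711 to 1211671, averaged 699 ± 58.5 after freezing and 739 ± 49.8 in control (SD, n = 3 each), with 70.2% of its signal in its main transcript. AtlantEVm024928, AtlantEVm019120 and AtlantEVm025918 had group means of 672, 641 and 617 after freezing and 640, 617 and 633 in control. The differences between the group means of these 5 loci ran from -0.08 to 0.13 on the log2 scale, and none of the 5 parted the groups without overlap.

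**Figure D2:**
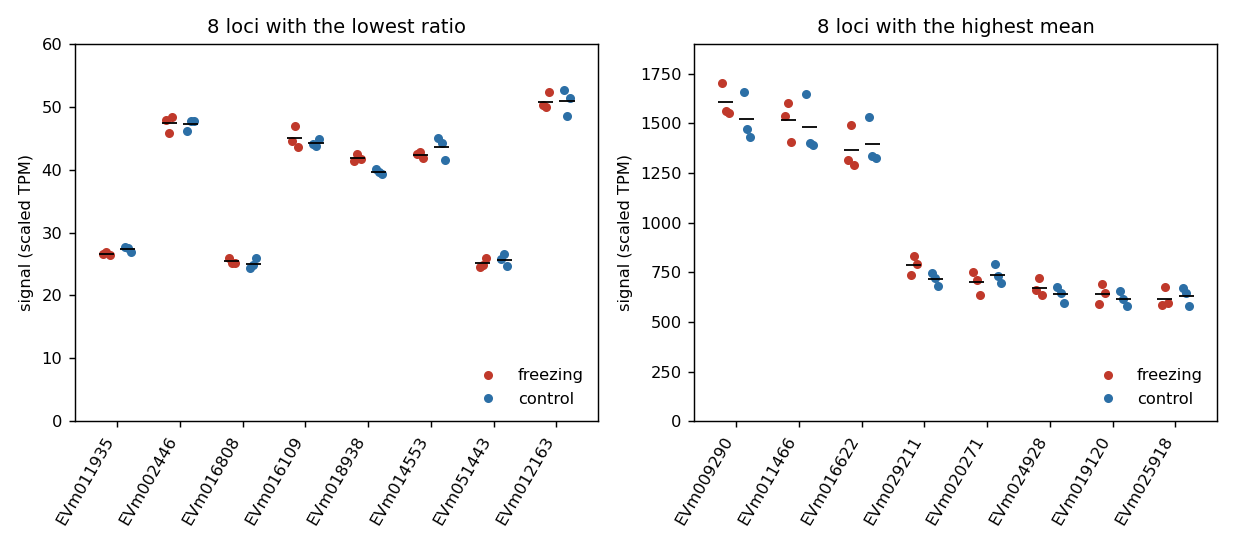
Signal in each library (vertical axis, scaled TPM, from 0) for the 8 steady loci with the lowest ratio (left) and the 8 with the highest mean (right), with freezing in red, control in blue and the group mean of 3 libraries as a black bar. Groups overlap in all loci shown except AtlantEVm018938, whose freezing values lie just above its control values.

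As a sum, the steady loci made up between 3.99% and 4.42% of the signal of each library. The sum was 43329 ± 603 after freezing and 42463 ± 1418 in control (SD, n = 3 each), and its highest library was 1.07 times its lowest. Freezing replicate 2 was the highest library for 100 of the 471 loci, more often than any other. Control replicate 3 was the lowest library for 125 and the highest for only 40, and its median offset from a locus's own mean was -0.04 on the log2 scale. In the other loci the median offsets ran from 0.04 to 0.09 in the freezing libraries and from -0.09 to -0.04 in the control libraries.

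The median log2 difference between group means was 0.02 in the steady loci and 0.12 over all 6204 loci, and 63.9% of the 6204 had the higher mean after freezing on the deposited scale. Which loci count as steady depends on that scale. With every library brought to the same total, the median over the 6204 loci was 0.05, the median of the steady loci was -0.04 and 280 of the 471 loci still met the rule. With libraries scaled by their median ratio over loci, these medians were 0.10 and 0.00 and 367 loci met it. The mean was higher after freezing in 274 steady loci on the deposited scale, in 174 after scaling to the same total and in 242 after scaling by median ratio.

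Within these limits, 77 of the 471 steady loci (16.3%) had groups that did not overlap, 61 with freezing above control and 16 below. Over all 6204 loci at this level the groups did not overlap in 30.5%. The limma fit over all 23661 loci tested called 9.80% at an adjusted p under 0.05 and 0 of the 471 steady loci, of which 0 also had an unadjusted p under 0.05. The rule itself caps the difference of a member, so nothing is read from these counts. The fit made 2318 calls over all loci. Leaving out freezing replicate 3 left 513, and leaving out control replicate 1, 2 or 3 left 46, 75 or 121.

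A steady locus must be tight among replicates in each group. Of the 6204 loci, 1926 stayed within 25% over the 3 freezing libraries and 3349 over the 3 control libraries. Both held for 1432 loci, and 471 of these (32.9%) were steady over all 6 libraries. The other 961 were tight in each group but not across the groups: 745 had the higher mean after freezing and 216 the lower. Their groups did not overlap in 699 loci, and 18 differed by at least 2-fold. Steadiness over the 6 libraries therefore combines a small replicate spread with a small difference between the groups.

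Steady loci were found at every level from 20 upwards, the lowest that the rule admits. Of loci whose lowest value lay from 20 to 30, 7.50% were steady, and of those from 30 to 50, 7.41%. The share was 7.99% from 50 to 100, 7.26% from 100 to 200 and 8.06% at 200 or more. They were also spread over all 12 chromosomes, from 5.93% of loci on chromosome 4 and 6.57% on chromosome 1 to 8.40% on chromosomes 10 and 11 and 8.51% on chromosome 6. The main transcript of 36 steady loci lay on an unanchored sequence, 7.64% of them against 5.35% of the other loci.

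The share of steady loci was also read along the length of the locus, which the rule did not use. The genomic interval of the main transcript, which is the listed transcript with the highest mean, had a median of 5.95 kb in steady loci and 4.56 kb in the others. Of loci with an interval up to 2 kb, 26 of 818 were steady, or 3.18%. The share was 6.13% from 2 to 4 kb, 7.18% from 4 to 6 kb, 9.05% from 6 to 8 kb, 10.9% from 8 to 12 kb and 13.1% above 12 kb. The longest interval among steady loci was that of AtlantEVm002641, 81.7 kb on chromosome 4, copy 3, at 26598557 to 26680224, which had 23.3, 22.2 and 22.9 after freezing and 21.0, 24.6 and 21.3 in control. The shortest was that of AtlantEVm017470, 0.45 kb on chromosome 9, copy 0, at 36366314 to 36366763, with 54.5, 60.3 and 56.0 after freezing and 58.2, 49.5 and 54.5 in control. These 2 loci were chosen after their values were seen.

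This order moved with the spread among replicates and with the size of the difference between the groups. The median absolute log2 difference between group means was 0.362 up to 2 kb and 0.194 above 12 kb. The share of loci that stayed within 25% in each group was 8.31% up to 2 kb and 36.2% above 12 kb, and the median coefficient of variation within a group was 25.3% and 10.9%. Among loci that were tight in both groups, 38.2% were steady in the shortest band and 36.1% in the longest, with 29.3% to 35.0% between. Loci with long intervals had lower levels, with a median mean signal of 41.3 above 12 kb against 82.3 up to 2 kb. Among loci whose lowest value was 50 or more the share of steady loci was 3.44% up to 2 kb, 13.5% from 8 to 12 kb and 12.1% above 12 kb. Among loci whose main transcript was listed at a single place it was 3.23% up to 2 kb and 13.6% above 12 kb. Loci with transcripts on 1 of copies 1 to 4 of their main transcript's chromosome showed no steady rise. Their shares were 0.709%, 6.30%, 3.7%, 8.16%, 3.39% and 7.02% from the shortest band to the longest, with 57 to 238 loci in a band. The interval is not the length of the transcript itself. Transcript lengths and read numbers were not analysed here, and their part in this order was not tested.

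**Figure D3:**
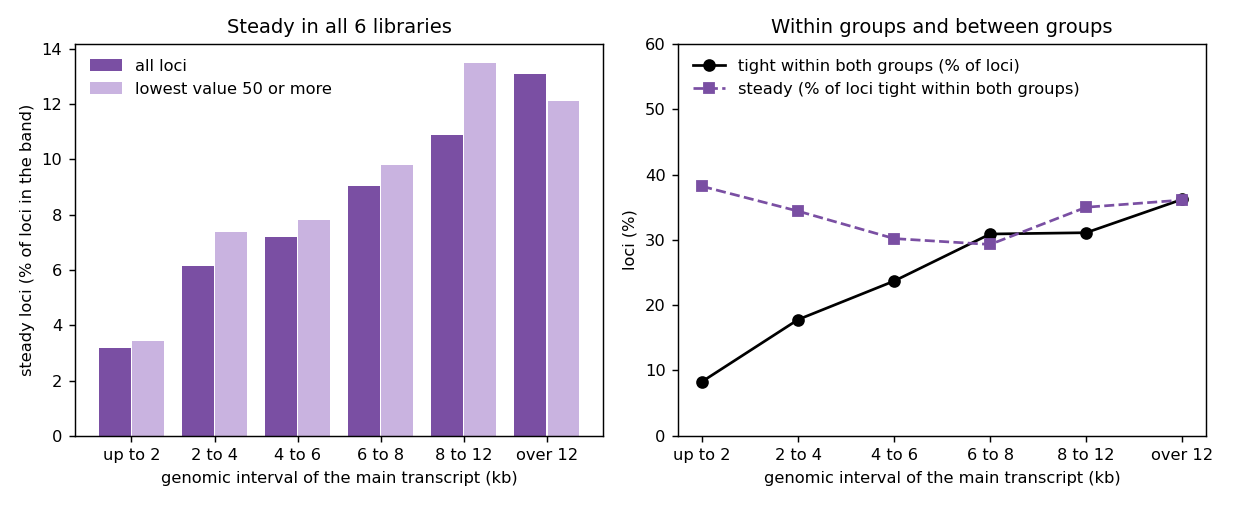
Left, steady loci as a percentage of all loci in a band (vertical axis, from 0) by the genomic interval of the main transcript in kb (horizontal axis), for all 6204 loci and for those with a lowest value of 50 or more. Right, the percentage of loci tight within both groups, which was 8.31% in the shortest band and 36.2% in the longest, and the percentage of these tight loci that were steady over all 6 libraries, which stayed between 29.3% and 38.2%.

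Other structural features lay close together. Steady loci had a median of 10 listed transcripts and the others 9, and the main transcript held a median of 40.6% of the signal against 43.1%. Both kinds named a median of 4 gene models. Transcripts on 2 or more chromosome numbers were found in 39 steady loci, or 8.28%, against 6.49% of the others. AtlantEVm014007 spanned the most, with transcripts on 5 chromosomes, and had 89.0, 93.7 and 85.3 after freezing and 106, 90.6 and 101 in control. AtlantEVm004216 had the most transcripts, 97 over 98 gene models, and averaged 30.8 ± 3.11 after freezing and 28.7 ± 1.86 in control (SD, n = 3 each). Their values are sums over many gene models.

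The share of steady loci was also read by the number of chromosome copies. Only loci whose main transcript lay on a chromosome were counted, and copies are those of that chromosome. Of 135 such loci with transcripts on none of copies 1 to 4, 11 were steady, or 8.15%. Of 755 loci with transcripts on 1 of copies 1 to 4, 36 were steady, or 4.77%. The share was 7.75% with 2 copies, 7.28% with 3 and 8.17% with all 4. Loci on 1 of copies 1 to 4, some of them also listed on copy 0, had a median interval of 3.98 kb. At 4 copies the median was 4.95 kb. Up to 2 kb, 0.709% of loci on 1 copy were steady, against 3.48% of loci with 2 to 4 copies. The shares were 6.30% and 5.97% from 2 to 4 kb and 3.7% and 7.37% from 4 to 6 kb. They were 8.16% and 9.05% from 6 to 8 kb. From 8 to 12 kb, 2 of 59 loci on 1 copy (3.39%) were steady against 11.4%, and above 12 kb 4 of 57 (7.02%) against 13.6%. The part of the interval in the lower share was not tested.

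At 105 steady loci each of copies 1 to 4 of a single chromosome carried transcripts placed nowhere else, so the copies could be read apart. The copy with the most signal held a median of 31.9% of it, against 32.0% in the 1102 other loci of this kind. Balance ran widely among the steady loci. In AtlantEVm005771, on chromosome 2, the copies averaged 15.9, 15.3, 15.0 and 13.8, and the highest held 26.5%. In AtlantEVm016491, on chromosome 1, they averaged 15.7, 5.62, 1.89 and 0.370, and the highest held 66.6%. Both sums were steady, at ratios of 1.17 and 1.23. The loci were picked as the extremes of balance after their values were seen.

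Copies at these loci varied more than the sums that the rule had selected. Of the 420 copies at these 105 loci, 156 stayed within 25% themselves, or 37.1%, against 114 of 4408 copies (2.59%) in the other loci. The median ratio of a copy at the 105 loci was 1.28, against 1.207 for the sums. In the 1102 other loci these medians were 1.77 and 1.67. The rule held the steady sums low in these libraries, so the gap between copy and sum at steady loci was partly set by the choice. At 25 steady loci none of the copies stayed within 25%, at 30 loci 1, at 27 loci 2, at 20 loci 3 and at 3 loci all 4. For the 1102 other loci these counts were 1000, 91, 10, 1 and 0. The 3 steady loci with all 4 copies within 25% were AtlantEVm005805, AtlantEVm008050 and AtlantEVm016109. Of these, AtlantEVm005805 on chromosome 6 was the most abundant. Its copy 1, at 12301198 to 12310598, had 26.1, 30.1 and 28.6 after freezing and 28.3, 28.5 and 29.0 in control, and its copy 3, at 29639702 to 29648351, had 23.7, 25.9 and 25.5 after freezing and 26.0, 25.6 and 24.0 in control. Copies are parts of the sum that chose the locus, and the division of reads among near-identical copies is not documented. Its part in the spread of single copies was not tested.

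**Figure D4:**
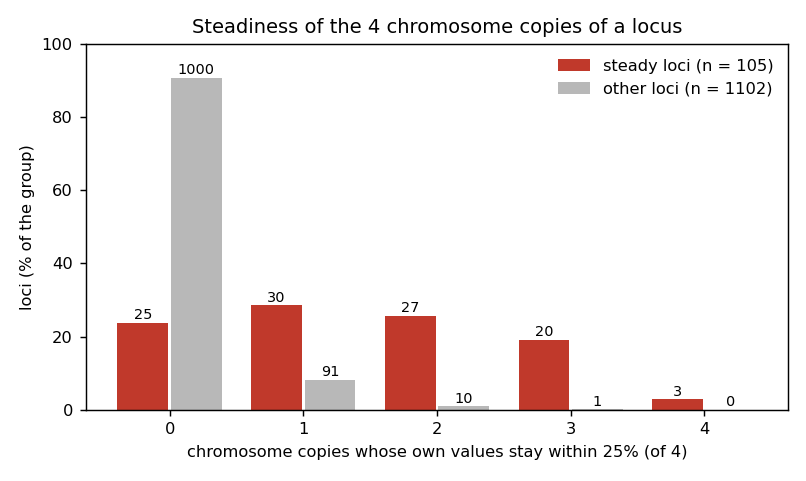
Loci (vertical axis, percent of their group, numbers above the bars) by how many of their 4 chromosome copies stayed within 25% on their own (horizontal axis), for 105 steady and 1102 other loci with uniquely placed transcripts on all 4 copies. Only 3 steady loci had 4 steady copies, and 1000 of the other loci had 0.

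Single transcripts were read in the same way. The main transcript stayed within 25% in 223 of the 471 steady loci, or 47.3%, and in 2.13% of the others. In the 460 steady loci with 2 or more transcripts, its ratio had a median of 1.26, against 1.201 for their sums. In the 5571 other loci of this kind the medians were 1.77 for the main transcript and 1.69 for the sum. The sums of the steady loci were selected in these same libraries, and the main transcript is part of the sum. Nothing is therefore read from the gap between part and sum, or from the higher share of main transcripts within 25% in steady loci. When the rule was put to single transcripts, 300 qualified, and 214 of these belonged to 151 of the steady loci. In the other 320 steady loci no single transcript met the rule.

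The makeup of the sum varied inside the steady loci as well. The share of a locus's signal that sat on different transcripts in a freezing and a control library had a median of 6.74%, against 5.16% between libraries of the same group. In the other loci these medians were 7.23% and 5.31%. The distance between groups was larger than that within groups in 80.9% of the 460 steady loci with 2 or more transcripts and in 81.9% of the 5571 others, so the 2 kinds were close in this count. With the same libraries in the rule and in this measure, no test is attached.

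A transcript is said to part the groups here if its 3 freezing and 3 control values did not overlap, its group means differed at least 2-fold and the higher mean was at least 5. Such a transcript was found in 21 of the 471 steady loci, or 4.46%, against 16.1% of all 6204 loci. It was higher after freezing in 17 loci and lower in 7, and 3 loci, AtlantEVm001677, AtlantEVm004906 and AtlantEVm019604, held both kinds. A chromosome copy that parted the groups by the same criteria was found in 2 steady loci, AtlantEVm015247 and AtlantEVm019604, or 0.425%, against 6.64% of all loci. A steady sum limits how far its parts can move, so the lower share in steady loci is partly set by the rule.

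AtlantEVm004906, whose main transcript lay on an unanchored sequence, held the largest exchange. Its transcript t4 had 5.997, 8.26 and 8.90 after freezing and 0, 0 and 0.001 in control, which is 30.6% of the locus after freezing and is listed at or near 0 in control. Transcript t2 of the same interval had 0, 0 and 0.679 after freezing and 5.45, 7.20 and 5.16 in control, with a share of 0.834% ± 1.44 after freezing and 23.2% ± 2.99 in control (SD, n = 3 each). The locus as a whole averaged 25.3 ± 1.85 after freezing and 25.5 ± 1.504 in control (SD, n = 3 each). Both transcripts were placed from position 26 to 6043, so the exchange was between forms assigned to the same interval.

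In AtlantEVm019604 the exchange was read between transcripts placed on different chromosome copies. The locus was listed on all 4 copies, but only copies 3 and 4 held uniquely placed transcripts. The rest of its signal was not divided by copy. The division of reads among near-identical copies is not documented, and its part in this exchange was not tested. Transcript t5, on chromosome 11, copy 3, at 1951483 to 1954780, had 26.4, 27.4 and 25.2 after freezing and 12.99, 11.6 and 12.5 in control. Transcript t3, on copy 4 at 3015649 to 3018782, had 5.06, 8.01 and 8.02 after freezing and 24.7, 21.5 and 22.4 in control. Their shares were 41.7% ± 1.38 and 11.1% ± 2.71 after freezing, and 18.5% ± 0.924 and 34.2% ± 1.18 in control (SD, n = 3 each). Summed over its uniquely placed transcripts, copy 3 averaged 27.8 ± 1.251 after freezing and 12.8 ± 0.673 in control, while copy 4 averaged 23.9 ± 1.82 after freezing and 36.3 ± 1.43 in control (SD, n = 3 each). The groups did not overlap on either copy, and the locus sum averaged 63.3 ± 4.67 after freezing and 66.8 ± 3.75 in control (SD, n = 3 each).

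AtlantEVm003025, on chromosome 1, copy 0, at 28441028 to 28444602, was the most abundant of the 8 loci named for their difference in share. Transcript t11 had 25.3, 19.9 and 31.2 after freezing and 4.198, 3.60 and 6.03 in control, a 5.53-fold higher mean after freezing. Transcript t13 of the same interval had 27.4, 24.8 and 22.6 after freezing and 46.4, 42.6 and 39.3 in control. The groups were apart for both transcripts, while the locus had 141, 122 and 134 after freezing and 143, 129 and 139 in control. Transcripts t2 and t20 of this locus were also higher after freezing by the criteria above, with means 3.02 and 2.28 times those in control.

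In AtlantEVm012450, on chromosome 6, copy 1, at 17877714 to 17882921, transcript t1 held 32.0% ± 7.80 of the signal after freezing and 54.2% ± 0.220 in control (SD, n = 3 each). Transcript t6 of the same interval had 7.05, 3.86 and 8.38 after freezing and 2.44, 2.63 and 3.37 in control. In AtlantEVm015247, transcript t7 on chromosome 10, copy 0, at 910613 to 913853 had 4.22, 1.43 and 3.48 after freezing and 8.07, 7.88 and 6.03 in control. Its share was 10.8% ± 4.83 after freezing and 28.3% ± 3.54 in control (SD, n = 3 each). No single transcript took up this difference: the largest opposite change in share was 5.35 percentage points, in t4 on copy 1.

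The remaining 3 loci named for their shares held no transcript that parted the groups by the criteria above. In AtlantEVm015360 transcript t2 held 21.5% ± 7.97 after freezing and 39.3% ± 9.49 in control, and the values of t2 overlapped between the groups. In AtlantEVm010331 transcript t1 held 27.6% ± 4.55 after freezing and 42.3% ± 3.61 in control, and in AtlantEVm009219 transcript t1 held 62.1% ± 7.61 after freezing and 47.4% ± 5.47 in control (SD, n = 3 each). The values of t1 did not overlap between the groups in either AtlantEVm010331 or AtlantEVm009219. The group means of these 3 transcripts differed by less than 2-fold.

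**Figure D5:**
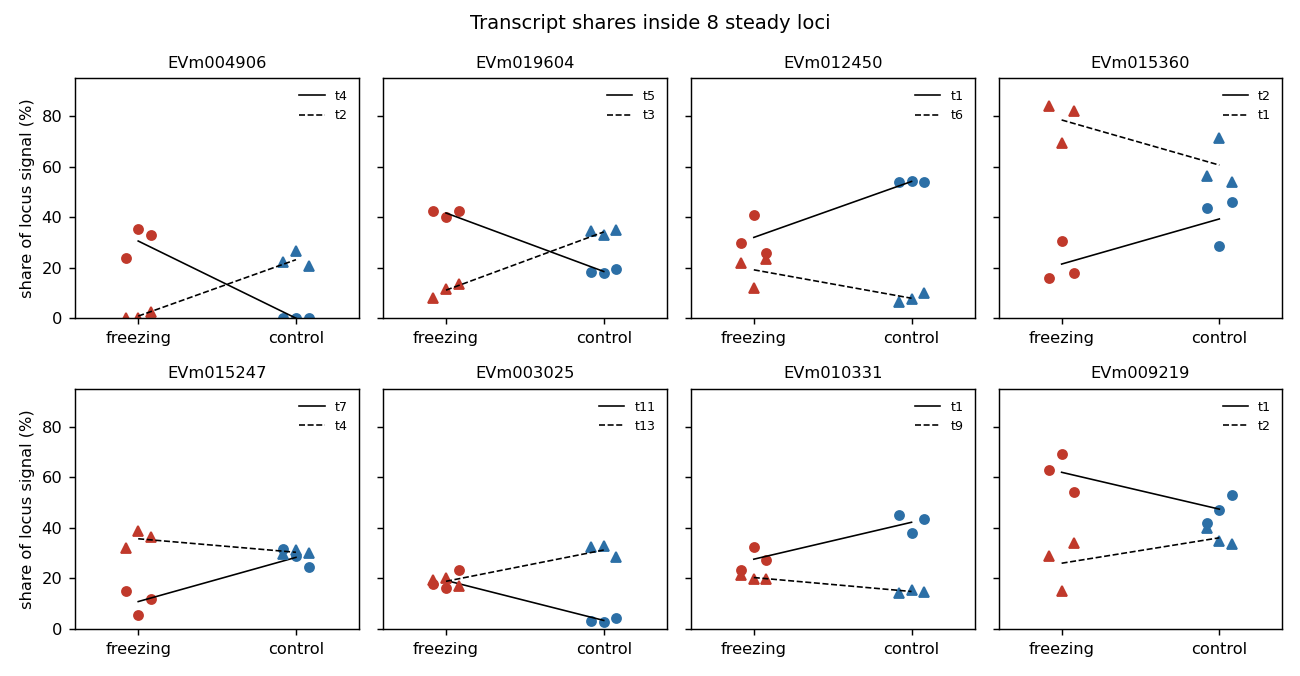
Share of the locus signal in percent (vertical axis) held by 2 transcripts in each of 8 steady loci, with the 3 freezing libraries in red on the left and the 3 control libraries in blue on the right. Circles and solid lines mark the transcript with the largest difference in share, triangles and dashed lines the transcript with the largest opposite difference, and lines join the group means. The lines cross in AtlantEVm004906 and AtlantEVm019604, and in AtlantEVm003025, where the 2 shares were near equal after freezing.

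Other steady loci held a minor transcript that parted the groups. In AtlantEVm003923 transcript t16 had 10.5, 5.96 and 37.4 after freezing and was listed at 0, 0.005 and 0 in control, at 5.27% of the locus after freezing. In AtlantEVm001677 transcript t18 had 6.29, 8.07 and 11.7 after freezing against 1.89, 1.12 and 2.29 in control, while t10 had 10.3, 5.62 and 1.37 after freezing against 14.8, 12.97 and 14.7 in control. In AtlantEVm007837 transcripts t6 and t9 were both higher after freezing, and t9 held 21.2% of the signal after freezing and 10.6% in control. In AtlantEVm002284 transcript t7 held 20.2% after freezing and 9.88% in control. These loci were picked from the 21 after their values were seen.

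The 471 steady loci are not all independent measurements. There were 12 that named a gene model also named by another steady locus, in 6 pairs, such as AtlantEVm007119 and AtlantEVm035336 on chromosome 4, which shared 4 models.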

How the data were processed

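Stranded mRNA libraries of Atlantic shoots, 3 after freezing and 3 in control, were used. The authors deposited a signal per assembled transcript and library. From the values it has the form of TPM over a TMM factor, with a geometric mean of totals of 1000000. Trimmomatic 0.39 is named in the submitters' processing notes, with aligner, assembler and genome build not given in the sources used here. Every value column was matched by name, and 0 were left over. Coordinates are printed as the deposited placement table lists them.

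Of 252591 transcripts, 224656 were placed and summed to loci. Limma 3.58.1 in R 4.3.3 was fitted to log2(signal + 1) for loci that reached 1 in 3 or more libraries, with a variance trend; tests were two-sided and adjusted by Benjamini-Hochberg (threshold 0.05). This step was tested on simulated data. Counts and shares used pandas 2.3.3. Copies were summed from transcripts placed on 1 sequence.

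The members and lists were chosen with earlier results of these data known. Loci named are the 8 of lowest ratio, the 8 of highest mean, the 8 of largest share difference, 3 on each side of the limit and the members with most transcripts and most chromosomes. Marker lists could not be used: 0 identifiers matched the reference table (32873 genes). P-values reflect only the variation among these libraries. The S. acaule libraries were not used here.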

Additional observations from a re-analysis of the deposited data

How the results depend on the processing

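The 471 steady loci became 231 with a limit of 1.2 and 784 with 1.3, 712 with a level of 10 and 183 with a level of 50, and 300 features for transcripts as deposited. Leaving out a library gave 587 to 1031, with 1031 without freezing replicate 2 and 777 without freezing replicate 1, since fewer libraries make the rule easier to meet. The count was 488 with all transcripts of a locus (469 shared), 515 with libraries of the same total (280 shared) and 499 with median ratios (367 shared).

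The 2318 of 23661 loci called by limma became 292 of 6204 with only loci at 20 or more in all 6 libraries. They became 3535 of 27034 with all transcripts of a locus and 122 of 23661 with a replicate block. Leaving out a library gave 46 to 2960, with 513 without freezing replicate 3 and 46, 75 and 121 without control replicates 1, 2 and 3. None of the 13 fits called a steady locus, but the rule caps their differences in these same libraries, so nothing is read from this. The replicate numbers were not taken to pair the libraries, since the labels do not say that they do. Deviations of same-numbered libraries correlated at 0.08, -0.45 and -0.02, which cannot settle whether they are paired.

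The 21 loci with a transcript that parts the groups became 47 at 1.5-fold, 7 at 4-fold, and 84 and 6 with a higher mean of at least 2 and 10. With a library left out they were 21 to 30, a check chosen after seeing the data, as was scaling to the same total, which also gave 21. The 2 loci with such a copy became 0 at 4-fold and 1 with a higher mean of at least 10. Apart from the limits of construction named here, the causes were not tested. Depth is unknown and limits the low transcripts most.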
